A study of Mus musculus with 2 samples.

Results

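Somatostatin-positive delta cells were taken from single-cell RNA sequencing of the mouse pancreas at E15.5, an age at which islet cells are forming. A cell was kept as a delta cell when it had at least 50 Sst UMIs per 10000 UMIs of the cell, fewer than 200 Gcg, fewer than 200 Ins1 plus Ins2, fewer than 100 Ctrb1 and fewer than 20 Col1a1 plus Col3a1. A UMI is a molecular barcode, so that 1 UMI stands for 1 captured RNA molecule. These limits kept 92 of 6384 WT cells and 2 of 3624 Mettl3pKO cells, 94 of 10008 in all. The cells were selected on these measured levels, so their Sst and the limited genes are given only as a description.

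The series holds 1 library of WT and 1 library of Mettl3pKO fetal pancreas, with no further treatment given. Mettl3pKO mice lacked Mettl3, the methyltransferase that places N6-methyladenosine on messenger RNA, in Pdx1-positive pancreatic progenitors. The labels name neither the Cre line, the deleted exons nor the number of embryos per library, and cells outside that lineage kept the gene by design. Each genotype being a single library, no test between them could be run, and every interval below is a 95% interval for counting error only.

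Delta cells are the somatostatin cells of the islet. Somatostatin acts through inhibitory receptors on neighbouring alpha and beta cells and lowers the release of glucagon and insulin. In the embryo, islet cells come from progenitors that switch on Neurog3 and then pass through a precursor stage marked by Fev. The homeodomain factor Hhex is required for delta cells, and Rbp4 and Isl1 are also used to mark them, although Isl1 is shared by all islet cells.

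The Sst gene, whose reads define these cells, lies on the minus strand at chr16:23889573-23890958 of GRCm38 (GENCODE annotation). Its RefSeq start region is known for a cyclic AMP response element, the textbook site of CREB binding, and for sites of islet homeodomain proteins. The 2 stretches of 30 bases below are shown because they hold the only match of each motif in the 250 bases before the RefSeq start, at position 23890844. GENCODE places the start further upstream, so that by its annotation both stretches lie inside the first exon of Sst. They are written 5′ to 3′ on the gene's strand, with the motif in capitals.
Sst response element, chr16:23890874-23890903: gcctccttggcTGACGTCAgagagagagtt
Sst homeodomain core, chr16:23890923-23890952: gattttgcgaggcTAATggtgcgtaaaagc
The first motif, TGACGTCA, reads the same on both strands. It began 48 bases before the RefSeq start, and 508 of 32851 RefSeq promoter windows of that length (1.55%) held it. The second, TAAT, was searched on both strands, began 95 bases before the start and stood in 54.9% of the windows, so that its presence sets Sst apart from few genes. Both matches are descriptions of the letters, not of binding.

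Among the 92 WT delta cells, Sst ran from 50.7 to 1947 UMIs per 10000, with a median of 614 and quartiles of 190 and 1030. The cells just inside the limit had 50.7, 51.1 and 51.8, and the cells just outside had 47.1, 41.9 and 41.4. Only 11 WT cells that met the other limits lay between 20 and 50, so the limit cut a thin part of the range. In Mettl3pKO the 2 delta cells had 106 and 863, and the next cell below the limit had 4.60. WT delta cells held 84.0% of all 73565 Sst UMIs of their library, and Sst made up 6.50% of their UMIs. Outside the cells above the limit, 30.5% of WT cells and 12.7% of Mettl3pKO cells still had at least 1 Sst UMI. Without thinning, the share was 18.6% in mesenchymal, 43.4% in acinar and 37.5% in alpha cells. After each cell was thinned to 5000 UMIs, 9.85% of mesenchymal, 19.5% of acinar and 18.1% of alpha cells had an Sst UMI, at median depths of 9088, 13113 and 13570 UMIs. Low shares of this kind occur in classes that are not known to make the hormone and were not read as expression.

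The other 3 markers were then examined, since the limits did not use them. On GRCm38 they lie at chr19:37434810-37440731 (Hhex, plus strand), chr19:38116629-38125281 (Rbp4, minus strand) and chr13:116298281-116309689 (Isl1, minus strand). Hhex had a UMI in 91 of the 92 WT delta cells, with a median of 9.85 and a highest value of 29.2 UMIs per 10000. Rbp4, a retinol carrier, had a UMI in all 92, from 1.86 to 314 with a median of 115. Isl1, a LIM homeodomain factor, had a UMI in 90, with a median of 13.8. The marker label therefore held for nearly all of the cells, with low Rbp4 in a few of them. The WT delta cells had 6674 to 24613 UMIs each, a median of 9559.5 UMIs and 3478 genes, and 6.04% mitochondrial UMIs against 6.87% over all WT cells. Scrublet, a doublet caller, marked 6 of the 92.

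**Figure D1:**
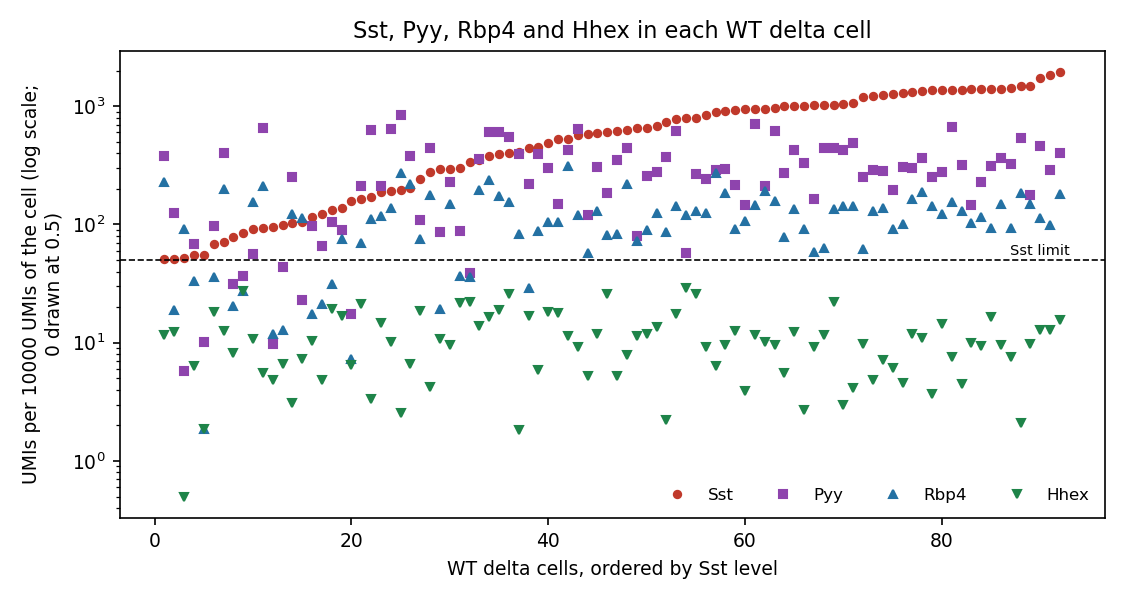
Levels of Sst, Pyy, Rbp4 and Hhex in each of the 92 WT delta cells, in UMIs per 10000 UMIs of the cell on a log scale, with cells ordered by Sst and a value of 0 drawn at 0.5; the dashed line is the Sst limit of 50. Hhex stays in one range along the order, while Rbp4 and Pyy fall to low values in part of the cells on the left.

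Delta cells were fewer in the Mettl3pKO table than in the WT table. They made up 1.44% of WT cells (92 of 6384, exact Clopper-Pearson interval 1.16 to 1.76) and 0.0552% of Mettl3pKO cells (2 of 3624, 0.00668 to 0.199). The WT share was 26.1 times the Mettl3pKO share (7.03 to 219). Among delta, alpha and beta cells together, delta cells made up 12.5% in WT (92 of 736, 10.2 to 15.1) and 0.702% in Mettl3pKO (2 of 285, 0.0851 to 2.51), a ratio of 17.8 (4.79 to 149). Alpha cells were 1.16 times (0.938 to 1.43) and beta cells 1.42 times (1.17 to 1.73) as frequent in WT as in Mettl3pKO among all cells. The counting interval of the delta ratio did not reach those of the other 2 islet classes, over the cells listed.

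The libraries differed in more than genotype. The median depth was 10824 UMIs per cell in WT and 16481 in Mettl3pKO, the shallowest cells had 3803 and 10719, and 33 cell labels occurred in both libraries, none of them on a delta cell. Both tables broke off inside a line and ran from deep to shallow cells, with a median of 23571.5 UMIs in the first 638 WT cells and 7176.5 in the last 638, and of 30193.5 and 12258 in the first and last 362 Mettl3pKO cells. Shallow cells may therefore be missing from either table, to a different depth in each, and the shares above hold only for the cells listed. In WT, 66 of the 92 delta cells lay below the shallowest Mettl3pKO cell and 26 reached it. Among cells above that depth, the delta share was 0.799% in WT (26 of 3256) against 2 of 3624 in Mettl3pKO. The libraries also differed in their share of cells with Y-linked RNA. Where Y-linked UMIs but no Xist were found, 38 of 1767 WT cells (2.15%) and 0 of 2039 Mettl3pKO cells were delta cells, and the latter allows a share of up to 0.181%. Among cells with Xist and no Y-linked UMI the counts were 40 of 3524 (1.14%) and 0 of 689, which allows up to 0.534%. Among cells with both kinds of RNA the shares were close, with 3 delta cells among 349 WT cells (0.860%, interval 0.178 to 2.49) and 2 among 255 Mettl3pKO cells (0.784%, interval 0.0951 to 2.80), and among cells with neither they were 11 of 744 (1.48%) and 0 of 641. The part of genotype, embryo and library in the share cannot be told apart.

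The 2 Mettl3pKO delta cells did not look alike. The first, with 11924 UMIs, had 863 Sst, 7.55 Hhex, 66.3 Rbp4, 32.7 Isl1 and 424 Pyy per 10000, all within the range of WT delta cells. The second, with 16361 UMIs, had 106 Sst, 3.06 Hhex, 12.2 Isl1 and 83.7 Pyy, but 1.22 Rbp4, which is below the lowest WT value of 1.86. Both had Y-linked and Xist UMIs. Summed, Hhex stood at 495 CPM (UMIs per 1000000 UMIs of the class; 14 UMIs, 271 to 830) against 1026.5 in WT, and Rbp4 at 2864 against 11064. Pyy was closer, at 22733 against 27829. Mettl3 itself had no UMI in either cell and 19 UMIs in the WT delta cells; with 28285 UMIs in all, 0 UMIs allow up to 130 CPM, so the deletion could not be checked in them. Because of this number of cells the rest of the account is of WT.

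Gene levels of WT delta cells were set against 3 other WT classes. The 277 alpha cells had at least 200 Gcg per 10000, the 367 beta cells at least 200 Ins1 plus Ins2, and the 124 Fev precursors at least 5 Fev, each within the remaining limits. UMIs were summed per class and given as CPM, and a gene was counted when its mean CPM over both classes was at least 20 and it differed at least 2-fold. Against alpha cells 438 of 7181 genes were higher in delta cells (6.1%) and 343 lower (4.78%). Against beta cells 799 of 6817 were higher (11.7%) and 309 lower (4.53%), and against Fev precursors 313 of 7325 were higher (4.27%) and 414 lower (5.65%). The median log2 ratio over all genes was 0.00, 0.26 and -0.21. Ratios to beta cells are therefore shifted up and those to Fev precursors down, and with the ratios centred on these medians the higher and lower genes were 491 and 489 against beta cells (50.1% higher) and 451 and 265 against Fev precursors (63.0% higher, where 43.1% of the called genes were higher before). With all hormone UMIs left out of the totals, 58.6% of the genes called against Fev precursors were higher. Each of these lists of called genes rests on 1 library. A gene under 20 CPM in one class passed the level filter only through the other class, where it is high, and so had to differ; how many members did so is given with the gene lists below, and such members support nothing.

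Hhex was higher in delta cells than in each of the 3 classes. It stood at 1026.5 CPM in delta cells, 5.79 in alpha cells, 7.05 in beta cells and 135 in Fev precursors, ratios of 177 (117 to 281), 146 (106 to 206) and 7.60 (6.41 to 9.07). The mesenchymal background was 10.3 CPM, so alpha and beta cells were at background for Hhex, and Fev precursors were above it. Against alpha and beta cells Hhex passed the level filter only through delta cells. At 5000 UMIs, 97.8% of delta cells had a Hhex UMI, against 1.81% of alpha cells, 2.45% of beta cells and 18.5% of Fev precursors. Rbp4 reached 11064 CPM and was 4.89-fold, 6.20-fold and 10.6-fold above the same classes. Isl1 was 3.60-fold higher than in beta cells (3.37 to 3.83) and 1.38-fold and 1.40-fold higher than in alpha cells and Fev precursors, under the 2-fold limit.

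The second hormone of these cells was peptide YY, a gut and islet peptide of the neuropeptide Y family. Pyy had a UMI in all 92 cells, from 5.75 to 850 per 10000, and 27829 CPM in sum. This was 4.32-fold above alpha cells, 15.4-fold above beta cells and 4.73-fold above Fev precursors. Iapp, the amylin precursor, stood at 7845 CPM, between alpha cells (4612) and beta cells (21082). Ppy, pancreatic polypeptide, was present in 38 cells and at 333 CPM did not differ beyond counting error from alpha cells (317), but was above beta cells (80.8). Ghrl, ghrelin, was at 63.1 CPM against 1188 in alpha cells and 44.9 in mesenchyme. Glucagon and insulin 2 were limited by the rule, and their summed levels of 249 and 559.5 CPM compare with 185 and 118 in mesenchyme. At 5000 UMIs, 52.2% of delta cells had a Gcg UMI, against 40.8% of mesenchymal and 62.6% of acinar cells, and 26.2% of all Gcg UMIs of the delta cells came from 1 cell.

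**Figure D2:**
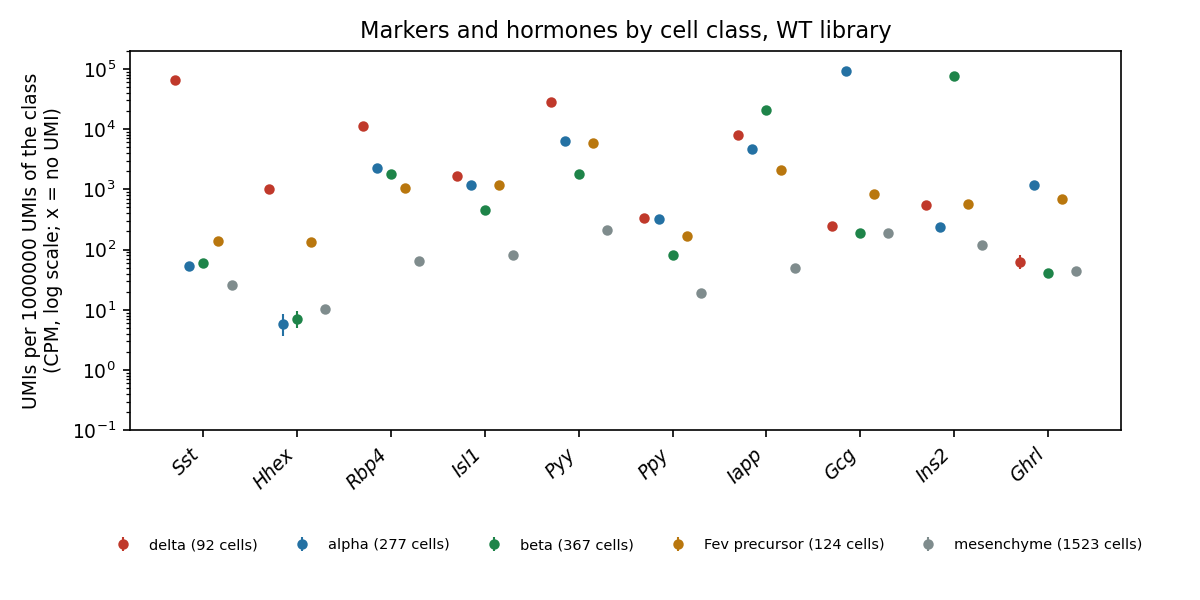
Summed levels of the 4 markers and of islet hormones in 5 WT classes, in CPM on a log scale with 95% Poisson intervals (counting error only), most of which are smaller than the points. Sst, Hhex, Rbp4 and Pyy are highest in delta cells, and Gcg of delta cells (249 CPM) lies near the mesenchymal level (185), with Ins2 above it (559.5 against 118).

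Of the 16 delta-associated genes listed, 10 were measured against each class. In delta cells 7 were higher and none lower than in alpha cells, 5 higher and 2 lower than in beta cells, and 6 higher and none lower than in Fev precursors. Of the higher members, 5 of 7, 5 of 5 and 4 of 6 passed the filter only through delta cells. Over all genes 6.1%, 11.7% and 4.27% were higher and 4.78%, 4.53% and 5.65% lower. Ptprz1, a receptor protein tyrosine phosphatase, had 272 UMIs in 61 delta cells (286 CPM) and 3 UMIs each in alpha and beta cells, ratios of 379 (128 to 1848) and 528 (179 to 2574), and was 29.9-fold above Fev precursors. Spock3, an extracellular proteoglycan, stood at 126 CPM against 1.26, 1.08 and 8.71. Efnb3, an ephrin, was 5.37-fold to 8.46-fold higher in the 3 comparisons. Ptprz1, Spock3 and Efnb3 passed the filter only through delta cells in all 3 comparisons. Ghsr, the ghrelin receptor, which is known for its use by adult delta cells, fell under the level filter, but its 25 UMIs lay in 14 delta cells, against 1 UMI in alpha cells, 1 in beta cells and none in Fev precursors. Its ratio was 104 (17.1 to 4288) to alpha cells and at least 10.1 to Fev precursors.

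Not every gene of that list was raised. Frzb, a secreted Wnt antagonist, was 108-fold above alpha cells but only 1.49-fold above beta cells. Against alpha cells Frzb passed the filter only through delta cells. Pcsk1, a prohormone convertase, was 4.88-fold above alpha cells and 2.80-fold below beta cells, and Sec11c, a signal peptidase subunit, was 2.74-fold below beta cells. Lepr, the leptin receptor, and Prg4 had no UMI in delta cells, Nrg1 had 1 and Bche 6. Kcnk16, a potassium channel of islet cells, was nearly level across the 4 classes, from 777 CPM in delta cells to 924 in beta cells.

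The genes whose levels were highest in delta cells relative to all 3 classes were named by the smallest lower bound of the 3 ratios. In all, 137 of the 6547 genes measured in every comparison were at least 2-fold higher than in each class, and 61 were lower. How many of these passed the filter only through the class where they were high was not counted. Among the 20 named genes were, in order, Ptprz1, Ppp1r17, Gap43, Cyr61, Hhex, Arg1, Spp1, Mest, Rbp4, Igfbp5, Pyy, Fam46a, Cd24a, Sult1d1, Egr3, Clu, Atf3, Tmed6 and Epb41l4a. Ppp1r17, an inhibitor of protein phosphatase, stood at 268 CPM against 1.26, 4.88 and 16.6. Gap43, a growth-cone protein of neurons, stood at 253 CPM in 58 cells against 23.4 in alpha cells and 6.97 in Fev precursors, and beta cells had 1 UMI. Arg1, arginase, had a UMI in 87 cells and stood at 499 CPM against 51.4, 3.07 and 68.8. Cd24a, a surface protein of immature epithelia, had a UMI in all 92 cells, with 1989.9 CPM against 49.8, 111 and 552. Ppp1r17 in every comparison, Gap43 against beta cells and Fev precursors, and Arg1 against beta cells passed the filter only through delta cells. Those folds support nothing.

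Some of these genes are also strong elsewhere in the tissue. Mest was at 254.5 CPM in delta cells and at 2198 in mesenchyme, and Igfbp5 at 405 and 1162. Alpha cells from the same library had 14.4 CPM of Mest and 80.3 of Igfbp5, so that the delta level was 17.7-fold and 5.04-fold above that of alpha cells. Mest passed the filter against alpha cells only through delta cells. Cyr61, Spp1 and Clu lay mostly in few cells: 5 of 92 cells held 80% of the Cyr61 UMIs, 6 held 80% of the Spp1 UMIs and 15 held 80% of the Clu UMIs. Without the 6 cells marked by Scrublet, Cyr61 went from 227 to 143 CPM, Spp1 from 388 to 210 and Clu from 426 to 304. These 3 genes stood at 249, 1508 and 1467 CPM in Neurog3 progenitors.

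Among the 10 genes lowest in delta cells were Ffar1, Ociad2, Sphkap, Ddc, Slc38a5, Maob, Vps37b, Slc30a8 and Tmem163. Of these, Ffar1, Ociad2, Ddc, Maob, Vps37b and Tmem163 were under 20 CPM in delta cells. They could pass a level filter only through the other classes, so their folds support nothing. Ffar1, a fatty acid receptor of alpha and beta cells, had 2 UMIs in the 92 delta cells and was 57.1-fold (15.7 to 473) below alpha cells and 108-fold (29.7 to 889) below beta cells. Slc30a8, the zinc transporter of secretory granules, was 15.9-fold and 29.2-fold below them, with 27.3 CPM. Slc38a5, an amino acid transporter, was 17.0-fold below alpha cells. Ddc and Maob make and break down monoamines, and both were below every class, at 9.47 and 15.8 CPM.

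**Figure D3:**
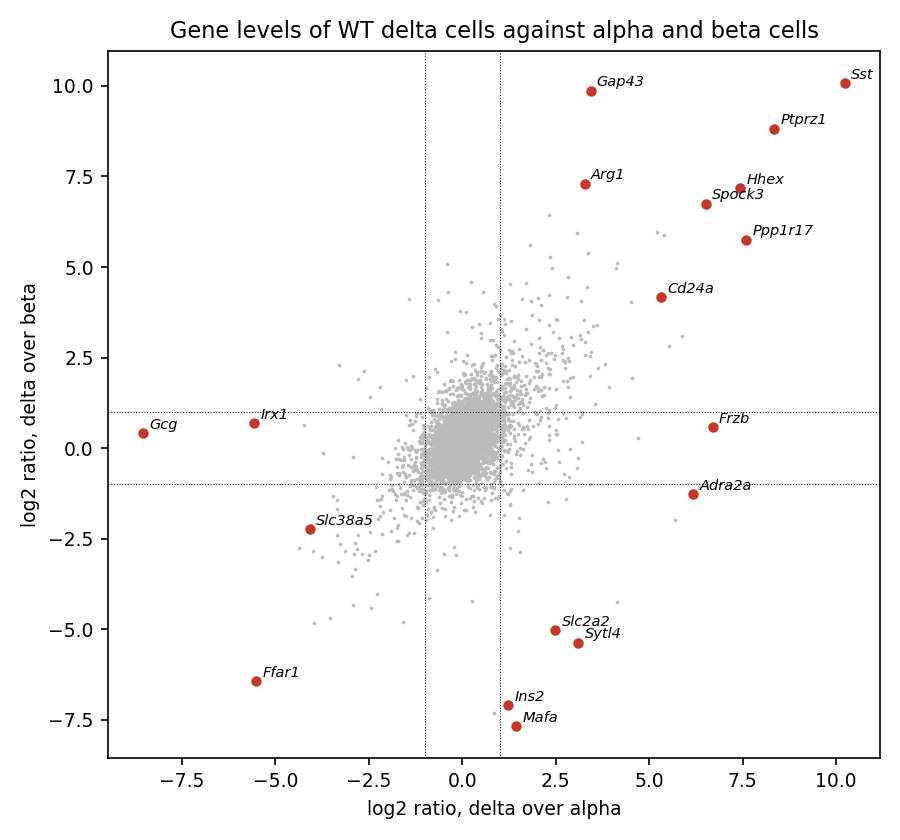
Log2 ratios of WT delta over alpha cells (x axis) and over beta cells (y axis), with genes that passed the level filter in both comparisons in grey, labelled genes in red whether or not they passed it in both, and dotted lines at 2-fold. Hhex, Ptprz1, Spock3 and Ppp1r17 lie high on both axes, Ffar1 and Slc38a5 low on both, and Frzb, Irx1 and Mafa differ mainly along 1 axis.

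Alpha-cell genes were low in delta cells. Of the 12 measured genes of alpha-cell identity, 11 were at least 2-fold lower than in alpha cells and none higher. Of these 11, 5 passed the filter only through alpha cells, and among the 7 members with at least 20 CPM in delta cells 6 were lower. Pou3f4, Irx1 and Irx2, described next, were among the 5, so their folds support nothing. Over all genes 4.78% were lower than in alpha cells. Pou3f4 (Brn4), a POU-domain factor of alpha cells, had no UMI in the 92 delta cells and stood at 143 CPM in alpha cells and 107 in Fev precursors, which puts delta cells at least 45.3-fold and 34.0-fold lower. Irx1 had 6 UMIs, all in 1 cell, and Irx2 had 12, and both factors were 51.3-fold and 30.4-fold below alpha cells. Etv1 was an exception by size, since it stood at 242 CPM, 2.71-fold below alpha cells and 17.4-fold above beta cells. The only measured member that was not 2-fold lower was Tmem27, at 688 CPM against 1297. The other genes lowest relative to alpha cells by the interval bound were Dock11, Edn3, Ffar1 and Ghrl. All but Ghrl passed the filter only through alpha cells. Sez6l, Adra2a and Syndig1l were among the highest, at 246, 99.9 and 70.5 CPM against 4.03, 1.26 and 0.755, and passed it only through delta cells.

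Beta-cell genes were low in the same way. Of the 15 measured genes of beta-cell identity, 14 were at least 2-fold lower than in beta cells. Of these 14, 7 passed the filter only through beta cells, and among the 8 members with at least 20 CPM in delta cells 7 were lower. Mafa, Slc2a2 and G6pc2 were among the former 7, so their folds support nothing. Over all genes 4.53% were lower than in beta cells. Mafa, the factor of insulin gene activation, had 5 UMIs in 2 delta cells and was 223-fold lower (95.4 to 686). Slc2a2, the glucose transporter, was 33.2-fold lower, G6pc2 66.6-fold lower and Nkx6-1 10.3-fold lower (8.41 to 12.8). The measured member outside that count was Pdx1, which is known to be kept in part of the delta cells. It stood at 97.8 CPM, with UMIs in 55 cells, 1.97-fold below beta cells and 4.18-fold above alpha cells. Npy, Arhgap36, Sytl4 and Kcnk9 completed the genes lowest relative to beta cells, and all of them passed the filter only through beta cells. Several genes of the beta list were higher than in alpha cells, where 4 of 9 were at least 2-fold higher, among them Nnat, an imprinted membrane protein, at 954 against 53.6 CPM. Of these 4, 1 passed the filter only through delta cells. The share over all genes higher than in alpha cells was 6.1%.

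Delta cells kept the general islet factors at varied levels. Pax6 was within 2-fold in all 3 comparisons, with 451 CPM in 88 cells. Insm1, a zinc finger factor of endocrine differentiation, stood at 782 CPM, 1.99-fold above alpha cells. Neurod1, a bHLH factor, was at 252 CPM, 2.63-fold below alpha and 2.57-fold below beta cells, and Nkx2-2 was 2.31-fold and 2.10-fold below them. Prox1 and Meis2 were 3.66-fold and 2.44-fold above beta cells and within 2-fold of alpha cells. Of the endocrine transcription factors, 6 of 30 measured were higher and 8 lower than in alpha cells, and 6 of 29 were higher and 7 lower than in beta cells. Over all genes, the shares higher and lower were 6.1% and 4.78% against alpha and 11.7% and 4.53% against beta cells. Of the higher factors, 1 of 6 and 2 of 6 passed the filter only through delta cells. Of the lower ones, 4 of 8 and 3 of 7 passed it only through the other class.

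Against Fev precursors, 18 of 34 measured endocrine transcription factors, Fev itself among them, were lower in delta cells and none higher, and 8 of the 18 passed the filter only through the precursors. Over all genes 5.65% were lower and 4.27% higher. Fev chose the precursors and is not a finding between the classes, but in delta cells it stood at 158 CPM, between alpha cells (231) and beta cells (86.8). Neurog3 was 8.78-fold lower (7.49 to 10.3) than in Fev precursors, at 177 against 1552 CPM, and progenitors had 6732. Neurog3 in delta cells was uneven, with UMIs in 40 cells and 42.3% of them in 1 cell. Pax4, a repressor with a role in beta and delta fates, was 18.9-fold lower (11.1 to 35.0), with 14 UMIs in 10 cells. Of the 15 measured genes of the progenitor and precursor list, 8 were lower, again with Fev, and none higher. Of these, Pax4 alone passed the filter only through the precursors. Chgb was among the 8, at 2095 against 5845 CPM. Scg2 went the other way, at 3498 against 378 CPM.

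**Figure D4:**
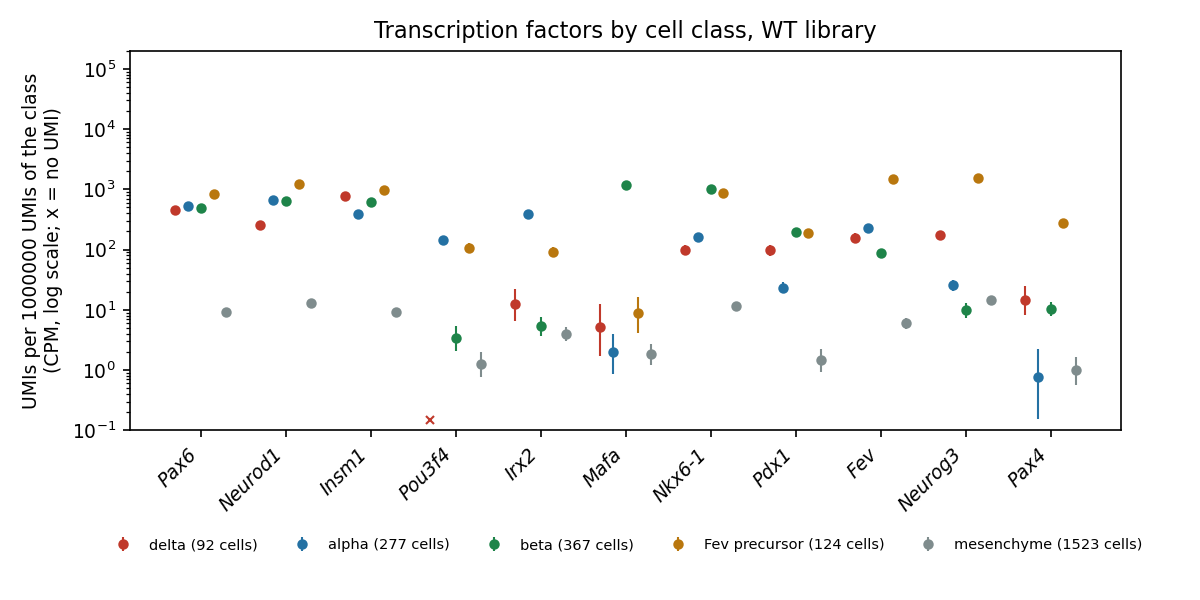
Summed levels of transcription factors in 5 WT classes, in CPM on a log scale with 95% Poisson intervals (counting error only); a cross marks a class with no UMI. Pou3f4 has no UMI in delta cells, Mafa and Nkx6-1 are highest in beta cells, and Fev, Neurog3 and Pax4 are below the precursors.

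Genes of the secretory pathway differed in both directions. The shares of called genes over all genes, higher and lower, were 6.1% and 4.78% against alpha, 11.7% and 4.53% against beta and 4.27% and 5.65% against Fev precursor cells, and with lists of this size the counts below that rest on 1 or 2 genes are near them. Of 15 granins and processing enzymes, 3 were higher and 5 lower than in alpha cells, 1 was higher and 5 lower than in beta cells, and 4 were higher and 2 lower than in Fev precursors. Of the lower members, 1 of 5 passed the filter only through alpha cells and 1 of 5 only through beta cells. Pam, which amidates peptide ends, was 4.06-fold above beta cells and level with alpha cells. Chga, a granin, was 3.06-fold below beta cells and within 2-fold of alpha cells. Pcsk2, the other main convertase, was at 2006 CPM and within 2-fold of both. Of the 24 measured exocytosis genes, 3 were higher and 4 lower than in alpha cells, and 3 were higher and 6 lower than in beta cells. Of the lower members, 3 of 4 and 3 of 6 passed the filter only through the other class. Of the higher ones, 0 of 3 and 1 of 3 passed it only through delta cells. Cadps, which primes granules, was 4.68-fold below alpha and 3.13-fold below beta cells, and Stxbp5l, a SNARE regulator, was 2.17-fold and 8.81-fold above them. With 18.9 CPM in delta cells, Cadps passed the filter only through the other classes. Stxbp5l passed it against beta cells only through delta cells.

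Delta cells had the channels of excitable islet cells. Kcnj11 and Abcc8, the subunits of the ATP-sensitive potassium channel, stood at 252 and 564 CPM and were within 2-fold of all 3 classes. Scn3a, a voltage-gated sodium channel, was 10.2-fold above alpha cells (7.84 to 13.3), 22.0-fold above beta cells (16.1 to 30.3) and 3.35-fold above Fev precursors. Cacna1h, a T-type calcium channel, was 7.35-fold above alpha and 2.66-fold above beta cells. In this list 2 of 12 measured genes were higher and 1 lower than in alpha cells, and 3 of 14 were higher and 2 lower than in beta cells. The shares over all genes were 6.1% and 4.78% against alpha and 11.7% and 4.53% against beta cells. Of the higher members, 1 of 2 and 2 of 3 passed the filter only through delta cells. Cacna1h against alpha cells and Scn3a against beta cells were among these. All the lower members passed it only through the other class.

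Receptors for somatostatin itself differed by class. Sstr3 was at 45.2 CPM in delta cells, 43.8 in alpha cells and 35.4 in beta cells, and did not differ 2-fold. Sstr2 had 2 UMIs in delta cells and 65.4 CPM in alpha cells, 31.1-fold more (8.53 to 258), and passed the filter only through alpha cells. Sstr1 fell under the filter, with 17 UMIs in 13 delta cells (17.9 CPM), 2.77 CPM in alpha cells and no UMI in beta cells. Sstr5 had 2 UMIs in delta cells and Sstr4 none. Adra2a, the adrenergic receptor that restrains hormone release, was at 99.9 CPM, 79.4-fold above alpha cells and 2.40-fold below beta cells, and Gpr119 was 22.9-fold below alpha cells. Against alpha cells, both passed the filter only through the class where they were high.

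The 9 proliferation genes summed to 170.4 CPM in delta cells, 559 in alpha cells and 245 in beta cells. Of the 8 members measured against alpha cells, 5 passed the filter only through alpha cells, and the 3 with at least 20 CPM in delta cells were all at least 2-fold lower. Over all genes 4.78% were lower than in alpha cells. Of the 5 measured against beta cells and the 3 against Fev precursors, none differed 2-fold. Most of their UMIs in delta cells came from few cells, as 66.7% of the Mki67 UMIs lay in 1 cell. At 5000 UMIs, 3.26% of delta cells (3 of 92, 0.678 to 9.23) had at least 2 UMIs of the 9 genes, against 11.2% of alpha, 7.63% of beta and 4.03% of Fev precursor cells, and the counting intervals overlapped in each case. Without thinning the shares were 6.52%, 17.0%, 13.4% and 4.84%. Cdkn1a, a cell cycle inhibitor, was 2.77-fold above alpha and 3.89-fold above beta cells.

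Trunk and duct genes, which belong to the epithelium that gives rise to endocrine cells, were in part above the other islet classes. In delta cells 8 of 9 measured members were higher than in alpha cells, 8 of 11 higher than in beta cells and 6 of 11 higher than in Fev precursors, with none lower. Over all genes 6.1%, 11.7% and 4.27% were higher. Of the higher members, 4 of 8 passed the filter only through delta cells against alpha and against beta cells, and 0 of 6 against Fev precursors. Sox9, the trunk factor, stood at 318 CPM in 67 cells, against 49.1, 88.8 and 146. Spp1, osteopontin, stood at 388 CPM against 54.6, 68.7 and 61.0. The list summed to 1674 CPM in delta cells, 419 in alpha, 493 in beta, 667 in Fev precursor and 5420 in Neurog3 progenitor cells. It also summed to 1478 CPM in mesenchymal and 2315 in acinar cells, so a sum of this size is not particular to trunk or delta cells. Doublets move with the trunk and duct result. Without the 6 cells marked by Scrublet, Spp1 went from 388 to 210 CPM, Hes1, a Notch target, from 147 to 92.8 and Sox9 from 318 to 283. The part of doublets that were not marked was not tested.

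Markers of other cells were present at levels that differed by list. Erythroid genes summed to 3149 CPM (2994 UMIs), against 5674 in alpha, 4457 in beta, 7101 in Fev precursor and 8175 in mesenchymal cells. Hba-a1, a globin gene, had a median of 1.31 and a highest value of 268 UMIs per 10000. Acinar genes other than Ctrb1 summed to 709.9 CPM, with 2 of 13 at 0, against 648 in mesenchyme and 865 and 854 in alpha and beta cells. Mesenchymal genes other than the collagens of the rule summed to 68.4 CPM against 11174 in mesenchyme. The endothelial list summed to 69.4 CPM, against 20.6 in alpha, 11.9 in beta and 68.0 in Fev precursor cells, and all 8 UMIs of Cdh5 lay in 1 cell. Immune genes had 9 UMIs, with 5 of 7 members at 0. The neuron list summed to 123 CPM, with 3 of 8 members at 0, the glia list to 33.7, with 1 of 5 at 0, and the gut endocrine list to 98.9, with 4 of 9 at 0, against 68.9, 12.2 and 6.55 in mesenchyme. In alpha, beta and Fev precursor cells the neuron list was at 85.8, 153 and 232 CPM. The glia list was at 32.5, 15.2 and 37.5 there, and the gut endocrine list at 341, 73.4 and 64.5. The part of these lists in the results was not tested. Cdx2, which defines gut epithelium, had no UMI, and Gip had 39 UMIs in 8 cells. Of the dissociation stress list, some members were higher in delta cells: 8 of 15 were higher and 1 lower than in alpha cells, 6 of 16 higher and 1 lower than in beta cells, and 2 of 14 higher than in Fev precursors. Over all genes 6.1%, 11.7% and 4.27% were higher. The lower member passed the filter only through alpha or beta cells. The list summed to 20540 CPM in delta cells against 9992, 11013 and 14218. Nr4a1 was 4.69-fold and Atf3 7.40-fold above alpha cells. The part of this response in the other differences was not tested.

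The WT delta cells were then divided at their median Sst level, into 46 cells from 50.7 to 606 and 46 cells from 623 to 1947 UMIs per 10000, with median depths of 9275.5 and 9590.0 UMIs. The division uses Sst, so what follows describes the cells and tests nothing. In the lower-Sst cells 576 of 7076 genes were at least 2-fold higher (8.14%) and 164 lower (2.32%), with a median log2 ratio of 0.18 over all genes. Since Sst itself takes part of the totals, this was repeated without its UMIs, and 454 genes were then higher and 302 lower.

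Hhex and Isl1 did not follow Sst. Hhex stood at 1059 CPM in the lower-Sst cells and 989 in the higher-Sst cells, a ratio of 1.07 (0.942 to 1.22), and Isl1 at 1716 and 1563. Pyy and Rbp4 were lower with lower Sst, at 23137 against 33257 CPM and 9261 against 13150, both under 2-fold. Ptprz1 was 2.38-fold, Ppp1r17 2.83-fold, Gap43 2.56-fold and Scg2 2.00-fold lower in the lower-Sst cells. Of the 11 measured delta-associated genes, 3 were at least 2-fold lower there (Ghsr, Ptprz1 and Bcl11a) and none higher, beside 2.32% lower and 8.14% higher over all genes. Ghsr had 9 and 16 UMIs, and its interval included no difference.

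Trunk and duct genes stood higher in the lower-Sst cells. Of 11 measured trunk and duct genes, 9 were at least 2-fold higher there, of which 5 passed the filter only through the lower-Sst cells. Beside this and the list counts below, 8.14% of all genes were higher there and 2.32% lower. Spp1 stood at 700.1 against 27.2 CPM, Clu at 673 against 141 and Sox9 at 433 against 184. With the cells marked by Scrublet removed before the division, 7 of these genes were still at least 2-fold higher. Of 7 measured alpha-cell genes, 5 were higher, 1 of which passed the filter only through the lower-Sst cells, with Peg10, an imprinted gene, at 539 against 195 CPM. Nkx6-1 stood at 161 against 27.2 CPM and Neurog3 at 237 against 107, but 58.7% of the Neurog3 UMIs of the lower-Sst cells came from 1 cell. Of the other lists, 3 of 15 progenitor and precursor genes, 4 of 26 endocrine transcription factors and 2 of 8 beta-cell genes were higher, with median log2 ratios of 0.07, 0.09 and 0.23 beside 0.18 over all genes. Of the 2 beta-cell genes, 1 passed the filter only through the lower-Sst cells. Of the dissociation stress list, 1 of 15 was higher and none lower, with a median of -0.58, and Fos stood at 2228 against 3484 CPM and Nr4a1 at 690.2 against 1227. The collagens limited by the rule, Col1a1 and Col3a1, were also higher in the lower-Sst cells, 2 of the 3 measured mesenchymal genes. There 51.2% of the Col1a1 UMIs and 55.3% of the Col3a1 UMIs came from 1 cell. The part of the stress and mesenchymal genes in the division was not tested. Fev did not differ beyond counting error, at 169 against 145. Proliferation genes were detected at 2 or more UMIs in 4 lower-Sst and 2 higher-Sst cells. Of 3 measured proliferation genes, all 3 were higher in the lower-Sst cells, and all 3 passed the filter only through those cells. There 69.6% of the Mki67 UMIs came from 1 cell. Of 4 measured Notch genes, 3 were higher, 1 of which passed the filter only through the lower-Sst cells.

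**Figure D5:**
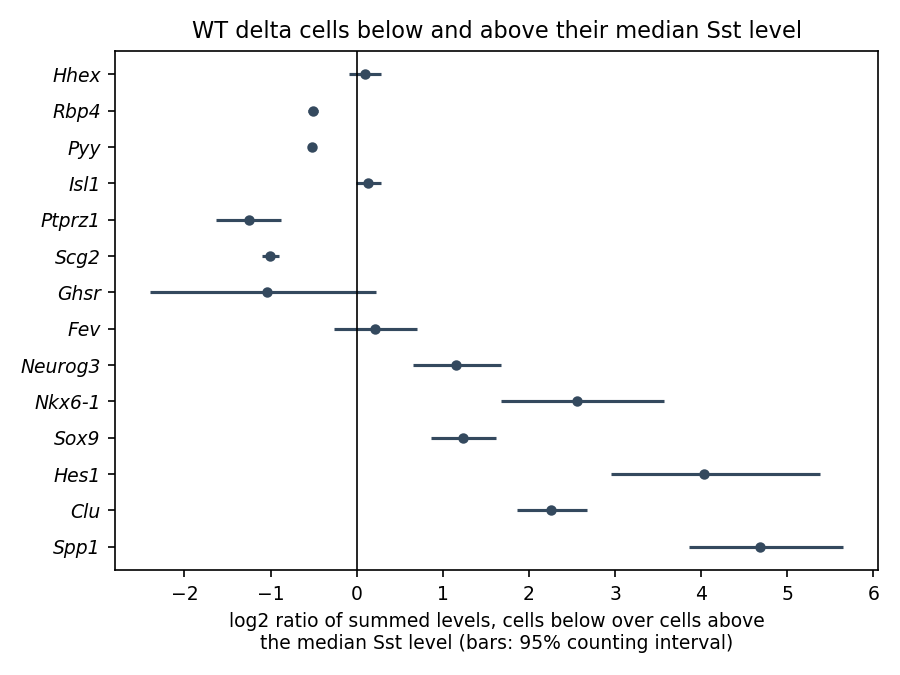
Log2 ratio of summed levels in the 46 WT delta cells below over the 46 above their median Sst level, with 95% counting intervals. Hhex, Isl1, Fev and Ghsr reach the zero line or lie on it, Ptprz1 and Scg2 lie to its left, and trunk and duct genes such as Spp1, Clu and Hes1 lie to its right.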

How the data were processed

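Pancreas cells of 1 WT and 1 Mettl3pKO library were sequenced on the BD Rhapsody platform. The deposited values are whole UMI counts for each gene in each cell, made with the BD Rhapsody whole-transcriptome pipeline version 1.8 per the file headers. The submitters' processing notes name build mm10 and Seurat. Each table ended inside its last line, and the 1 incomplete cell of each was dropped, so shallower cells may be missing. WT had 80011421 UMIs in all, and Mettl3pKO had 65779771. The 22023 genes in both tables were used.

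UMI counts were summed per class and divided by the class total (CPM). A gene needed a mean of 20 CPM over both classes, 2-fold was the limit for a call and 0.5 UMIs were added for log2 ratios. In bounds on ratios, 3 UMIs were the limit for a count of 0. Ratios carry exact conditional binomial intervals, levels Poisson and shares Clopper-Pearson ones, all at 95% and for counting error only. Cells were thinned to 5000 UMIs with no cell left out. Doublets were scored with Scrublet (scanpy 1.11.5), which marked 342 of 6372 WT cells but 1 of 3623 Mettl3pKO cells, where it did not work; marked cells stayed in unless stated. On simulated sums, 200 of 200 genes changed 4-fold were called against alpha cells, and 95.4% of the intervals over 7054 genes held the true ratio. Genes left unchanged were called 4 times against alpha, 6 against beta and 27 against Fev precursor cells. The simulated sums held counting error only, without UMIs gathered in few cells. They checked the calculation and not the spread between cells. Other tools were Python 3.11.15, numpy 2.4.6, pandas 2.3.3 and scipy 1.17.1. Motifs were searched in RefSeq promoter windows of GRCm38.p6, the assembly of mm10.

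Named genes were those of 27 lists, the 20 highest and 10 lowest over the 3 comparisons by interval bound at a mean of at least 50 CPM, and 8 in each direction per comparison; genes used by the limits, mitochondrial, ribosomal, globin and sex-linked genes were not named. The cells and lists were chosen with earlier results of these data known. Alternatives changed the limits, cell filters, depth, scaling, summing, level filter, pseudocount, fold and thinning. Some named genes are not reported here.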

Additional observations from a re-analysis of the deposited data

How the results depend on the processing

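No paired analysis was possible because each genotype is 1 library and no result comes from a test. The WT share of delta cells moved to 0.799% in cells above the common depth, 2.15% in cells with Y-linked and no Xist RNA and 1.14% in cells with Xist and no Y-linked RNA; the Mettl3pKO share was 0 in both of the last 2, and WT was above Mettl3pKO in every setting run. Counts of genes called, higher and lower in delta cells, were as follows where they moved over 1.5 times. With a mean of at least 5 CPM they were 1021 and 843 against alpha, 1818 and 565 against beta and 816 and 871 against Fev precursor cells. With at least 50 CPM they were 195 and 139, 303 and 168, and 125 and 178. At 1.5-fold they were 995 and 844, 1918 and 682, and 671 and 1423. Centred on the median, they were 491 and 489 against beta cells, and 265 were lower against Fev precursors. At the common depth, with 26 delta cells, 740 were lower against Fev precursors. Without Sst in the totals, 302 genes were lower in the lower-Sst cells. At the common depth 3 ratios to Fev precursors turned sign, to log2 values of -0.19 for Egfl7, -0.61 for Ppy and -0.19 for Sstr3; the cause was not tested. Over 309 called ratios of listed and named genes and 13 settings, 3909 of 4017 values stayed at least 2-fold in the same direction. This count was partly fixed in advance. The ratios were chosen as at least 2-fold, and settings that changed only the level filter or the fold limit could not alter them. Genes used by the limits were also among them, so the count is no measure of stability. The depth limits statements on Ghsr, Sstr1, Sstr2 and Mettl3, with 25 UMIs or fewer in delta cells, and on the 2 Mettl3pKO cells. Intervals leave out variation between embryos, which 1 library per genotype cannot give.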

Other observations

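Among genes that write N6-methyladenosine, the mark that Mettl3 places, the counts in WT delta cells were near the shares over all genes, which were 6.1% higher and 4.78% lower against alpha, 11.7% and 4.53% against beta and 4.27% and 5.65% against Fev precursor cells. Of the writer genes, 0 of 6 measured differed 2-fold from alpha cells, 1 of 6 was higher than in beta cells (Rbm15, a subunit that binds RNA) and 1 of 7 was lower than in Fev precursors (Cbll1, an E3 ligase of the complex). Rbm15 passed the filter only through delta cells. Of the Notch pathway, 1 of 5 measured genes was higher than in alpha cells, 1 of 4 higher than in beta cells, and 1 of 5 higher and 1 lower than in Fev precursors. The higher gene was Hes1 in each case, whose UMIs lay in 17 cells, with 80% of them in 6, and the lower gene was Hes6. Of the islet hormones, 3 of 11 were higher and 4 lower than in alpha cells, 3 of 10 higher and 4 lower than in beta cells, and 5 of 9 higher and 3 lower than in Fev precursors, counts that include glucagon and insulin, which the limits used. Of the higher hormones, 1 of 3, 1 of 3 and 1 of 5 passed the filter only through delta cells. Of the lower ones, 2 of 4, 1 of 4 and 0 of 3 passed it only through the other class.

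Beside the delta cells, 11 WT cells and 3 Mettl3pKO cells had at least 50 Sst UMIs per 10000 but failed another limit. In WT, 1 failed on Gcg, 3 failed on insulin, 3 on Ctrb1 and 4 on collagen, and Scrublet marked 7 of these 11 cells against 6 of the 92 delta cells. Their median depth was 17223 UMIs against 9559.5. The cell that failed on Gcg had 10958 UMIs and was not marked, with 508 Sst, 282 Gcg and 10.04 Hhex per 10000. Of the insulin cells, 2 were not marked: 1 had 734 Sst, 581 Ins2 and 3.89 Hhex, and the other had 502 Sst, 838 Ins2 and no Hhex UMI. The 3 Mettl3pKO cells were at 507, 314 and 152 Sst, of which the one at 314 had 292 Ins2 and 5.08 Hhex and the other 2 had 167 and 522 Ctrb1. These 3 cells held 47.4% of the Sst UMIs of the Mettl3pKO library, more than its 2 delta cells, which held 31.7%. With no limit on Gcg and insulin the counts were 96 WT and 3 Mettl3pKO cells, and with no limit on Ctrb1 they were 95 and 4.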
